A study of Mus musculus with 8 samples.

Results

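Blood vessels of the brain and of the liver are lined by endothelial cells of very different kinds, and 34 of their marker genes were followed here in hypothalamus and liver. They comprise 11 genes known from the brain barrier endothelium, 13 from the liver sinusoidal endothelium and 10 that endothelial cells of most organs share. Members were all array probes whose platform gene symbol was one of the 34 names. That gave 42 of the 25697 probes and 32 genes, since Cldn5, the main claudin of brain capillaries, and the lectin gene Fcn3 had no probe with that symbol. Each gene is described through its probe with the highest mean over the 8 arrays.

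RNA came from the hypothalamus and the liver of male Fmod knockout mice on a C57BL/6 background at 13 weeks of age, with 4 single-colour Illumina bead arrays per tissue. Every animal lacked fibromodulin, a collagen-binding proteoglycan. Wild-type mice were not analysed here, so the only contrast is between the tissues. No protocol in the labels separates cells, so each sample is whole tissue, and for every gene below fewer cells of a type and less RNA per cell cannot be told apart. Neither the promoter of a construct nor the site of the deletion is given in the sources used here.

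As background, brain capillary endothelium is sealed by tight junctions and carries transporters and efflux pumps that control what enters the tissue. It depends on Wnt ligands made by neural cells. Sinusoidal endothelium of the liver is fenestrated, lacks a continuous basement membrane and clears macromolecules through scavenger receptors. Its cells also send Wnt and BMP signals to hepatocytes. The genes they share encode adhesion molecules and receptors for VEGF, angiopoietin and BMP signals.

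Promoter sequences are shown for 5 members because they carry the contrast between the organs. Slco1c1 and Itm2a were high in hypothalamus, Clec4g and Stab2 were high in liver, and Slco1a4, a chromosome 6 neighbour of Slco1c1 whose start lies 331.9 kb away, ran opposite to it. Each window runs 5′ to 3′ from 250 bases before to 50 bases after the annotated start in RefSeq on GRCm38.p6. Capitals mark AGGAAG and its reverse complement CTTCCT, a core bound by ETS factors, a family that acts in endothelial cells. Overlapping matches were counted separately.
Slco1c1, chr6:141524104-141524403, plus strand: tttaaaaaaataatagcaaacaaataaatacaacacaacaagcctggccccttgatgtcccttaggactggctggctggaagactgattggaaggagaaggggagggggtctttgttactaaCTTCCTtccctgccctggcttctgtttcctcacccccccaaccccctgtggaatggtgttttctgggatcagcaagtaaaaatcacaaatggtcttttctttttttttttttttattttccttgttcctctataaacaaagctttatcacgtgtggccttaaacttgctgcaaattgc
Itm2a, chrX:107403311-107403610, minus strand: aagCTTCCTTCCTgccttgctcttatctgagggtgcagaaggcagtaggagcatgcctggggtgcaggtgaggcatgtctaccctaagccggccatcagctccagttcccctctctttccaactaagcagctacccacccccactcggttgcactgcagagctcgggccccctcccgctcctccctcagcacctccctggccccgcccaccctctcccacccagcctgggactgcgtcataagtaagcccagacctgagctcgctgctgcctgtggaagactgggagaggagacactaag
Slco1a4, chr6:141856171-141856470, minus strand: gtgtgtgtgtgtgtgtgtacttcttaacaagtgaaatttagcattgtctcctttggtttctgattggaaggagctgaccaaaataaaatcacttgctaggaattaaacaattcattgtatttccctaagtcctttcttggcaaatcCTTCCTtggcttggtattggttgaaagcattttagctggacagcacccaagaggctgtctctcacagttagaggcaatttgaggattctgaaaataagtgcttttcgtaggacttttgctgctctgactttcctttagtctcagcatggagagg
Clec4g, chr8:3720602-3720901, minus strand: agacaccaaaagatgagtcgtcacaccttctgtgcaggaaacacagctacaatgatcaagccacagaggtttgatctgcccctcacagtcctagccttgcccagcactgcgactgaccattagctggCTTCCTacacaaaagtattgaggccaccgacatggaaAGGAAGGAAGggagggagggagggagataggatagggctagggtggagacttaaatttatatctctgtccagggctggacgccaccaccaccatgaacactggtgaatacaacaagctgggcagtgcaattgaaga
Stab2, chr10:87007893-87008192, minus strand: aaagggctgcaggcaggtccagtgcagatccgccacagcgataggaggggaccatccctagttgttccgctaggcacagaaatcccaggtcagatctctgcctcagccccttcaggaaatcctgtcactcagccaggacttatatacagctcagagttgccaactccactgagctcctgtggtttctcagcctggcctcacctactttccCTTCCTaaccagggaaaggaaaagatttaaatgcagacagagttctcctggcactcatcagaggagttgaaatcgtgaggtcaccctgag
RefSeq windows were given for 23 of the 34 genes, 29 windows in all, and 17 of them (58.6%) held the core, against 35.4% of the 32851 promoter windows searched. The matches are letters in a window and say nothing about binding. Clec4g held 3 matches, Itm2a 2, and Slco1c1, Slco1a4 and Stab2 1 each, so the core stood in windows of genes that were high in either tissue.

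On the arrays, 13285 to 13753 probes were detected in hypothalamus and 10307 to 10828 in liver, detection meaning a deposited detection p-value under 0.05. Values are log2 intensities after background correction and quantile normalization of all 8 arrays, and a difference is always hypothalamus minus liver. The lowest value of any detected probe was 4.86 to 4.92 on hypothalamus arrays and 5.50 to 5.69 on liver arrays. Detection in 1 tissue and not the other is thus not on equal terms. Levels of different member genes were not set against each other. Marker sums below add linear values over probes, so the brightest probes weigh most in them. Within a tissue, pairs of arrays had correlations from 0.976 to 0.993. A probe was tested if detected on at least 4 arrays, which kept 30 of the 42 member probes and 26 of the 32 genes. Abcb1a, Abcg2, Lyve1, Bmp2, Cdh5 and Kdr were too dim, and 9 member probes were detected on no array. The p-values come from limma, adjusted over all 13498 tested probes with the Benjamini-Hochberg method, and measure the spread between these arrays, since the labels do not say how replicates relate to animals.

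The sinusoidal genes were the uniform group among tested members, but 10 were detected on every liver array and only 3 on every hypothalamus array. All 10 that were tested were higher in liver, and none was higher in hypothalamus, while the barrier genes went both ways, with 4 higher in hypothalamus, 3 higher in liver and 1 not called. Of 8 tested pan-endothelial genes, 2 were higher in hypothalamus, 3 higher in liver and 3 not called. Of all 9445 tested genes, hypothalamus had the higher level in 43.0% and liver in 37.3%, 80.4% in either direction (79.6% of tested probes, 37.8% of them higher in liver), so a call alone is common in this contrast, and a gene detected in a single tissue had to differ to be tested. The median log2 difference over members with a probe, tested or not, was 0.35 for the 10 barrier genes, -3.18 for the 12 sinusoidal genes and -0.28 for the 10 pan-endothelial genes, beside -0.05 over all 16593 genes with a probe. Among the 14 members detected on all 8 arrays, 3 of 4 barrier genes and 3 of 3 sinusoidal genes were higher in liver, as were 2 of 7 pan-endothelial genes. No barrier gene in that subset was higher in hypothalamus. The 4 barrier genes called so lay outside it and reached the test only through hypothalamus arrays. Genes detected on all arrays were called higher in liver in 45.3% and in hypothalamus in 34.2%. This subset was added after seeing the data. The values of the tissues did not overlap for 21 of the 26 tested members, against 75.6% of all tested genes. Beyond 2-fold, hypothalamus was higher for 4 barrier genes and liver for 3 barrier, 8 sinusoidal and 1 pan-endothelial gene, beside 23.7% and 18.9% of all tested genes (42.6% in either direction).

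**Figure D1:**
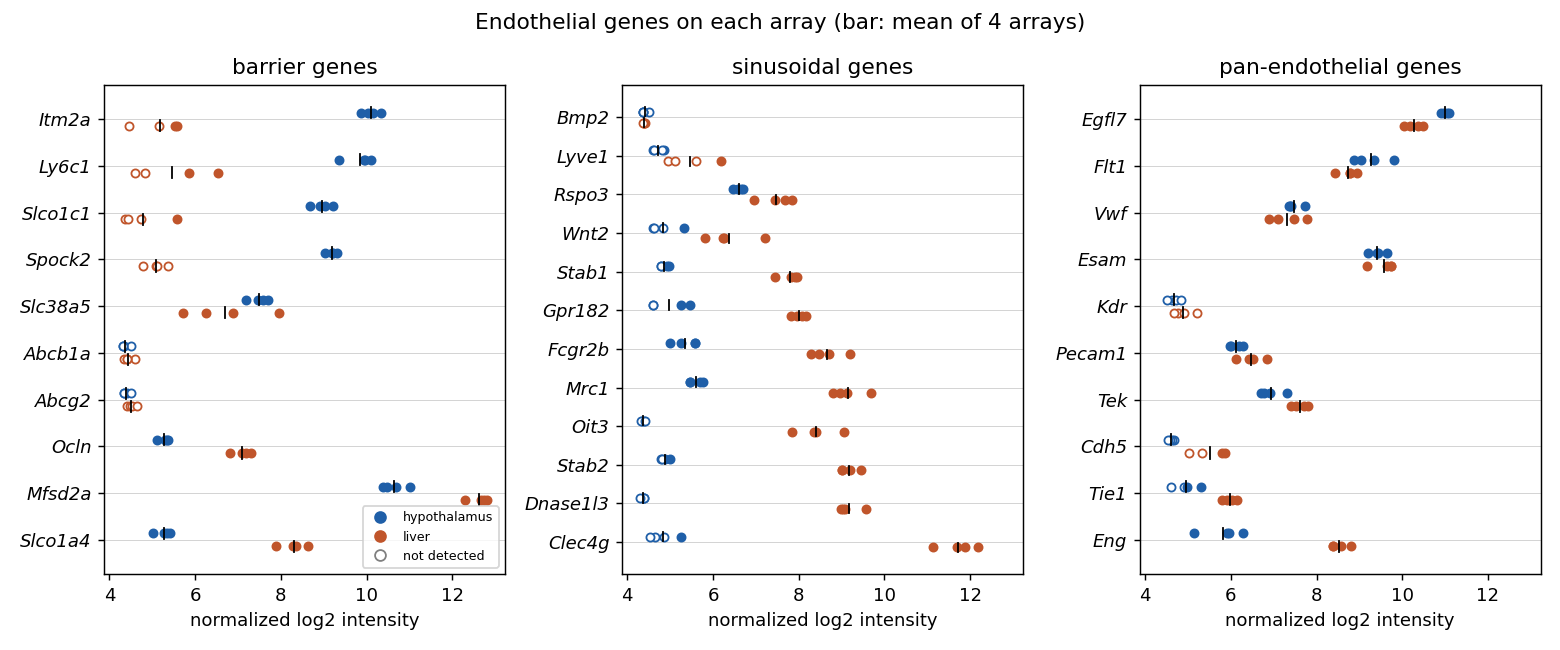
Normalized log2 intensity (x axis) of the brightest probe of each of the 32 genes on every array, with 4 hypothalamus and 4 liver points a gene, open where the probe was not detected, and a bar at the mean of the 4 arrays. Of the sinusoidal genes, liver points lie above all hypothalamus points except for Bmp2, narrowly so for Lyve1 and Rspo3, whereas Esam, Vwf and Pecam1 overlap between the tissues.

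Barrier genes included 4 that were higher in hypothalamus. Itm2a, an integral membrane protein enriched in brain endothelium, read 9.86, 10.32, 10.15 and 10.04 in hypothalamus replicates 1 to 4 and 5.57, 5.15, 5.54 and 4.46 in liver, where 2 of 4 arrays detected it. Its difference was 4.92 (SE 0.24, adjusted p = 2.07e-08), and the tissues did not overlap. A second Itm2a probe was detected on no array, with means of 4.41 and 4.52. Itm2a is also known from T lymphocytes.

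Ly6c1, a surface antigen of capillary endothelium, read 9.35, 10.11, 9.93 and 9.95 in hypothalamus against 6.53, 4.82, 5.85 and 4.60 in liver. The liver arrays ranged from 4.60 to 6.53 and 2 of them detected the probe, yet the groups stayed apart (difference 4.38, SE 0.39, adjusted p = 2.84e-06). The neighbouring gene Ly6c2 is nearly identical and is expressed by monocytes, so which of them this probe reads is uncertain.

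Slco1c1, the thyroxine transporter of the blood-brain barrier, gave 8.91, 8.67, 9.21 and 9.03 in hypothalamus and 4.73, 4.36, 5.57 and 4.43 in liver, with detection on liver replicate 3 alone. The difference was 4.19 (SE 0.25, adjusted p = 1.36e-07). Spock2, a secreted proteoglycan that neurons also make, gave 9.31, 9.04, 9.21 and 9.18 in hypothalamus. In liver it stayed between 4.78 and 5.35 and no array detected it, so its level was at least 12.1-fold higher in hypothalamus (adjusted p = 1.15e-09). The bound sets the hypothalamus mean against, per liver array, the higher of the probe's own signal and the lowest signal of any detected probe. Both genes separated the tissues on every array. Neuron markers, a possible source of Spock2, summed to 67540 to 74720 units of linear normalized intensity in hypothalamus and 431 to 506 in liver; their part in the result was not tested.

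The remaining detected barrier genes were not restricted to brain. Slco1a4, an organic anion transporter of the same family as Slco1c1, read 5.28, 5.42, 5.34 and 5.01 in hypothalamus and 8.29, 8.35, 8.64 and 7.90 in liver. It was thus higher in liver (difference -3.03, SE 0.17, adjusted p = 5.71e-08), opposite to its chromosomal neighbour. Its second probe was detected on no array. Mfsd2a, which carries lysolipids with omega-3 fatty acids across the barrier and is also made in liver, read 10.47, 10.68, 10.39 and 11.01 in hypothalamus and 12.29, 12.67, 12.80 and 12.74 in liver (difference -1.99, SE 0.17, adjusted p = 1.76e-06). Occludin (Ocln), a tight junction protein of endothelium and of hepatocytes and other epithelia, differed by -1.82 (SE 0.13, adjusted p = 4.13e-07), from 5.28 ± 0.12 in hypothalamus to 7.10 ± 0.20 in liver (SD, n = 4). Slco1a4, Mfsd2a and Ocln were detected on all 8 arrays, and their groups did not overlap. Hepatocyte markers summed to between 193100 and 197600 units in liver and between 448.5 and 20970 in hypothalamus. There 8 of the 14 measured were detected on no array and 2, Ttr among them, on all 4. Ttr, which choroid plexus also makes, had the widest spread of these markers in hypothalamus (8.85 ± 3.82, SD, n = 4), and the means of the others there were 6.74 or lower. The part of hepatocytes in these differences was not tested.

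Slc38a5, a glutamine transporter, differed most between arrays of a single tissue. In liver it read 5.71, 6.24, 6.89 and 7.96 on replicates 1 to 4, an SD of 0.97 that exceeded the SD of 99.6% of the 6517 genes detected on all 4 liver arrays. In hypothalamus it read 7.45, 7.58, 7.69 and 7.18 (SD 0.22). The liver range enclosed the hypothalamus values, and the difference of 0.78 (SE 0.40, 95% interval -0.13 to 1.69, adjusted p = 0.102) was not called. Without liver replicate 4 it was 1.20 and called (adjusted p = 0.00249), and it was also called under median scaling and in the authors' own normalized values. The efflux pump genes Abcb1a and Abcg2, both classical barrier genes, were detected on no array, with lowest detection p-values of 0.417 and 0.326. Their means lay between 4.37 and 4.51 in both tissues, so neither could be measured with these probes.

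Sinusoidal receptors for clearance came next. Clec4g (LSECtin), a C-type lectin of sinusoidal cells, had the largest difference of the members. It read 12.17, 11.13, 11.70 and 11.87 in liver and 4.85, 4.65, 5.26 and 4.54 in hypothalamus, where replicate 3 alone detected it. The difference was -6.89 (SE 0.23, adjusted p = 1.41e-09). The deposited signals before any correction were 3894, 2035, 3313 and 3829 in liver and 149.4 to 162.6 in hypothalamus.

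The stabilins, scavenger receptors for hyaluronan and modified proteins, differed in the same direction. Stab2 read 9.20, 9.44, 9.02 and 9.0 in liver and 5.01, 4.88, 4.79 and 4.81 in hypothalamus, a difference of -4.29 (SE 0.13, adjusted p = 4.87e-10). Stab1 read 7.81, 7.45, 7.97 and 7.90 in liver and 4.79, 4.97, 4.93 and 4.78 in hypothalamus (difference -2.92, SE 0.13, adjusted p = 1.36e-08). Each was detected on 2 of 4 hypothalamus arrays, and neither pair of groups overlapped. Mrc1, the mannose receptor, was detected on all 8 arrays, with 9.69, 8.97, 9.13 and 8.81 in liver and 5.47, 5.76, 5.70 and 5.46 in hypothalamus (difference -3.55, SE 0.19, adjusted p = 4.38e-08). Perivascular macrophages of the brain are also known to make it.

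Fcgr2b, the inhibitory Fc receptor that takes up small immune complexes, differed by -3.32 (SE 0.21, adjusted p = 2.04e-07), from 9.20, 8.29, 8.70 and 8.47 in liver to 4.99, 5.57, 5.24 and 5.57 in hypothalamus. Another Fcgr2b probe was at least 3.03-fold higher in liver (adjusted p = 7.83e-06), with no detection in hypothalamus, and a further one was detected on no array. Lyve1, a hyaluronan receptor of sinusoidal and lymphatic endothelium, was detected on 1 array per tissue. Its liver values of 6.20, 4.96, 5.11 and 5.60 lay above the hypothalamus values of 4.61 to 4.87, but it did not reach the test.

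Among secreted and signalling members, Dnase1l3, a nuclease that digests DNA in circulating particles, read 9.56, 9.04, 9.09 and 8.99 in liver and was detected on no hypothalamus array, being at least 19.3-fold higher in liver (adjusted p = 4.08e-10). Oit3, a zona pellucida domain protein, read 9.06, 7.84, 8.40 and 8.35 and was at least 11.4-fold higher there (adjusted p = 5.10e-08). A second Oit3 probe was detected on no array. Gpr182, an atypical chemokine receptor, was read by a pair of probes that ran alike, with differences of -3.03 (SE 0.21, adjusted p = 3.20e-07) and -2.81 (SE 0.32, adjusted p = 1.88e-05). Both were detected on hypothalamus replicates 2 and 3 and missed on replicates 1 and 4. The brighter read 4.60, 5.25, 5.46 and 4.59 in hypothalamus against 8.17, 7.83, 8.08 and 7.95 in liver.

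Signals from central vein endothelium to hepatocytes differed less. Wnt2 read 6.25, 5.82, 6.23 and 7.20 in liver and 4.60, 4.63, 5.32 and 4.83 in hypothalamus, with detection on replicate 3 alone there (difference -1.53, SE 0.28, adjusted p = 0.000591). Rspo3, a secreted enhancer of Wnt signalling that maintains pericentral hepatocytes, read 7.83, 7.44, 7.67 and 6.95 in liver and 6.66, 6.59, 6.46 and 6.70 in hypothalamus. Its difference of -0.87 (SE 0.18, adjusted p = 0.00138) was lost under median scaling (-0.21, adjusted p = 0.356) and in the authors' own normalized values (0.0011, adjusted p = 0.993). Deposited signals of Rspo3 overlapped, at 203.6 to 267.6 in liver and 213.7 to 290.3 in hypothalamus. The Wnt2 call was lost in the authors' values too (-0.22, adjusted p = 0.113). Rspo3 and Wnt2 were the tested sinusoidal genes that did not pass the test for a difference beyond 2-fold. The other 8 did, against 18.9% of all tested genes beyond 2-fold in that direction. Of these 8, Stab1, Stab2, Clec4g, Oit3, Dnase1l3 and Gpr182 reached the test only through liver. The share of all tested genes is therefore not an equal comparison. Bmp2, through which sinusoidal cells raise hepcidin in hepatocytes, was detected on no array.

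Macrophage markers were read beside the members. Liver had the higher level for 8 of 13 tested and hypothalamus for 2 (median -0.60), beside 37.3% and 43.0% of all tested genes. The counts became 6 and 2 under median scaling and 4 and 4 in the authors' values (median 0.09). The markers had summed levels of 2881 to 4926 units in liver and 1946 to 2326 in hypothalamus. The Kupffer cell genes Vsig4 and Clec4f were at least 24.4-fold and 22.3-fold higher in liver, and the microglial genes Cx3cr1 and Tmem119 were both at least 2.68-fold higher in hypothalamus. Mrc1, Stab1, Lyve1 and Fcgr2b are known from macrophages as well as from sinusoids, and the macrophage part in their differences was not tested.

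**Figure D2:**
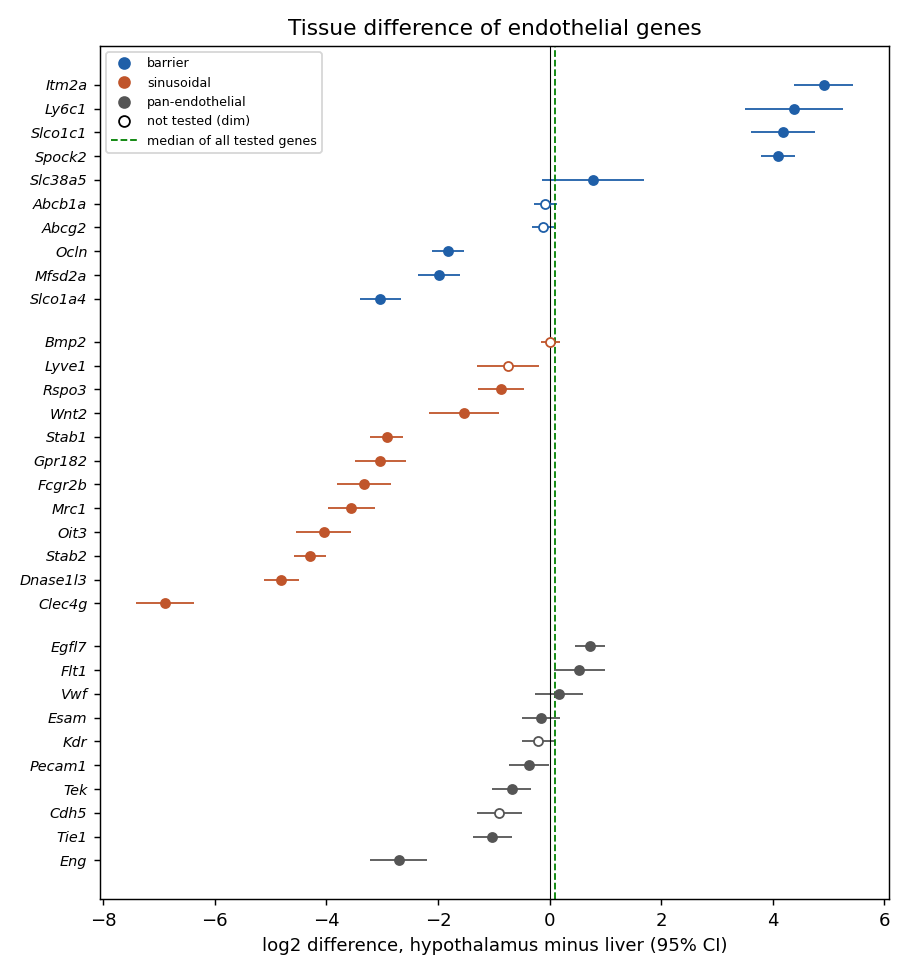
Log2 difference, hypothalamus minus liver, of each gene's brightest probe with its 95% interval from the limma fit (open symbols, not tested), grouped by class, with the median of all tested genes (0.11) as a dashed line. The sinusoidal genes reach from 0.01 for Bmp2 to -6.89 for Clec4g, barrier genes lie on both sides, and the pan-endothelial genes lie nearest to 0, Eng at -2.71 being farthest from it.

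Pan-endothelial genes lay close to the centre of the distribution. Their median difference was -0.26 over the 8 tested, and it turned to 0.14 under median scaling and to 0.32 in the authors' values. The median of all tested probes moved as well, from 0.07 to 0.31 and 0.39, and relative to it the group stood at -0.33, -0.17 and -0.07. Counts moved accordingly, from 2 higher in hypothalamus and 3 in liver to 3 and 2 under median scaling and 5 and 1 in the authors' values.

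Esam, Vwf and the brighter probe of Pecam1 overlapped between tissues. Esam, an endothelial junction molecule, read 9.20, 9.41, 9.63 and 9.44 in hypothalamus and 9.74, 9.18, 9.63 and 9.74 in liver, a difference of -0.15 (95% interval -0.50 to 0.19, adjusted p = 0.379) that became 0.36 and called in the authors' values (adjusted p = 0.0145). Pecam1 (CD31), the classical endothelial marker, had probes that did not run alike. The brighter read 6.00, 6.29, 5.97 and 6.20 in hypothalamus and 6.51, 6.11, 6.42 and 6.84 in liver, with groups that overlapped and no call (difference -0.36, adjusted p = 0.0617). The dimmer was higher in liver (difference -1.33, SE 0.16, adjusted p = 2.58e-05), detected on 7 of 8 arrays. The sign of the brighter Pecam1 probe turned under median scaling (0.34, adjusted p = 0.0625) and in the authors' values (0.28, adjusted p = 0.00623). The deposited signals of that probe were 183.3 to 239.4 in hypothalamus and 165.1 to 198.2 in liver. Pecam1 was called higher in liver under cyclic loess (-0.41, adjusted p = 0.0292), without liver replicate 2 (-0.48, adjusted p = 0.0144) and as the mean of its probes (-0.84, adjusted p = 6.37e-05). Vwf, the clotting factor carrier stored by endothelial cells, read 7.40, 7.37, 7.73 and 7.39 against 7.10, 6.89, 7.47 and 7.77 (difference 0.16, 95% interval -0.26 to 0.59, adjusted p = 0.445). It was called higher in hypothalamus under median scaling (0.78, adjusted p = 0.00366) and in the authors' values (0.61, adjusted p = 0.0003). VE-cadherin (Cdh5), the adhesion molecule that holds endothelial cells together, was detected on 2 liver arrays and on no hypothalamus array and was not tested. Its liver values of 5.33, 5.80, 5.86 and 5.03 lay above the hypothalamus values of 4.54 to 4.67.

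Receptor genes were spread more widely. Eng (endoglin), a coreceptor for BMP9, read 5.15, 5.90, 6.29 and 5.96 in hypothalamus and 8.80, 8.38, 8.57 and 8.37 in liver. It was the pan-endothelial member that differed beyond 2-fold (difference -2.71, SE 0.22, adjusted p = 1.52e-06), and its groups did not overlap. Tie1 and Tek, receptors of the angiopoietin system, differed by -1.02 (SE 0.16, adjusted p = 0.000155) and -0.68 (SE 0.16, adjusted p = 0.00265). Tek read 6.91, 6.79, 7.32 and 6.71 in hypothalamus and 7.81, 7.40, 7.71 and 7.52 in liver. Its deposited signals before any correction ran the other way, at 283.2 to 320.6 in hypothalamus and 225.8 to 271.0 in liver. Tie1 was detected on 2 hypothalamus arrays and all 4 liver arrays. It read 4.91, 5.31, 4.61 and 4.97 in hypothalamus and 6.02, 5.79, 5.92 and 6.15 in liver, near the floor. Its deposited signals overlapped, at 129.8 to 177.9 and 152.8 to 174.3. Under the stricter filter (detection p under 0.01) Tie1 was not tested. Neither call held in the authors' values, where Tie1 stood at -0.0099 (adjusted p = 0.903) and Tek at 0.10 (adjusted p = 0.332); that of Tek was also lost under median scaling (-0.06, adjusted p = 0.717).

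Flt1, the VEGF receptor that acts largely as a decoy, was slightly higher in hypothalamus, at 9.81, 8.87, 9.34 and 9.03 against 8.93, 8.43, 8.78 and 8.78 in liver (difference 0.53, SE 0.20, adjusted p = 0.0357). The groups overlapped, and the call was lost without hypothalamus replicate 1 (0.35, adjusted p = 0.0784) or 3 (0.51, adjusted p = 0.0763), without liver replicate 2 (0.43, adjusted p = 0.096), 3 (0.54, adjusted p = 0.0576) or 4 (0.54, adjusted p = 0.0562), and without a filter (adjusted p = 0.0625). A second Flt1 probe and the Kdr probe, for the main VEGF receptor, were detected on no array. Egfl7, a secreted endothelial protein whose gene also hosts a microRNA, read 11.04, 11.08, 10.97 and 10.91 in hypothalamus and 10.49, 10.04, 10.36 and 10.19 in liver, without overlap (difference 0.73, SE 0.12, adjusted p = 0.000272). Its second probe showed no call (0.17, 95% interval -0.18 to 0.53, adjusted p = 0.331), and its last was detected on 1 liver array.

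Arrays of a single tissue were then compared through each gene's deviation from its tissue mean. In liver, 9 of the 10 sinusoidal genes detected on all 4 arrays were above their mean on replicate 1 and 1 of 10 was on replicate 2, with median deviations of 0.38 and -0.26. The 8 pan-endothelial genes went the same way, with 7 above the mean on replicate 1 and 0 on replicate 2 (medians 0.18 and -0.27). A further 22 pan-endothelial genes outside the 34 had 18 above the mean on replicate 1, 6 on replicate 2 and 16 on replicate 4. Their medians on these were 0.134, -0.295 and 0.13. Of 5 pericyte and smooth muscle markers, 3 were above the mean on replicate 1 and 2 on replicate 2 (medians 0.232 and -0.151). Over all 6517 genes detected on the liver arrays the medians were -0.017 and 0.0019. Of these genes, 3026, 3304, 3193 and 3548 were above their mean on replicates 1 to 4. Sinusoidal and pan-endothelial members thus tended to be high on replicate 1 and low on replicate 2, where Stab2 was the 1 sinusoidal gene above its mean. The 4 barrier genes detected on all liver arrays did not share this, with 1 above the mean on replicate 1 (median -0.17) and 3 on replicate 2 (median 0.05). Macrophage markers took another course, with 9 of 9 above the mean on replicate 2 (median 0.50) and 0 of 9 on replicate 3 (median -0.30). Hepatocyte markers stayed between -0.04 and 0.03. Replicate 2 stayed at 1 of 10 sinusoidal and 0 of 8 pan-endothelial genes under median scaling, cyclic loess, no background correction and the authors' values. Replicate 1 held 7 of 10 sinusoidal genes under median scaling and cyclic loess. Under median scaling replicate 3 held 8 of 10 sinusoidal and 8 of 8 pan-endothelial genes, with medians of 0.099 and 0.183. Replicate 1 had medians of 0.385 and 0.143 there. These other scalings of the pattern were added after seeing the data, and with 4 arrays it was not tested.

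**Figure D3:**
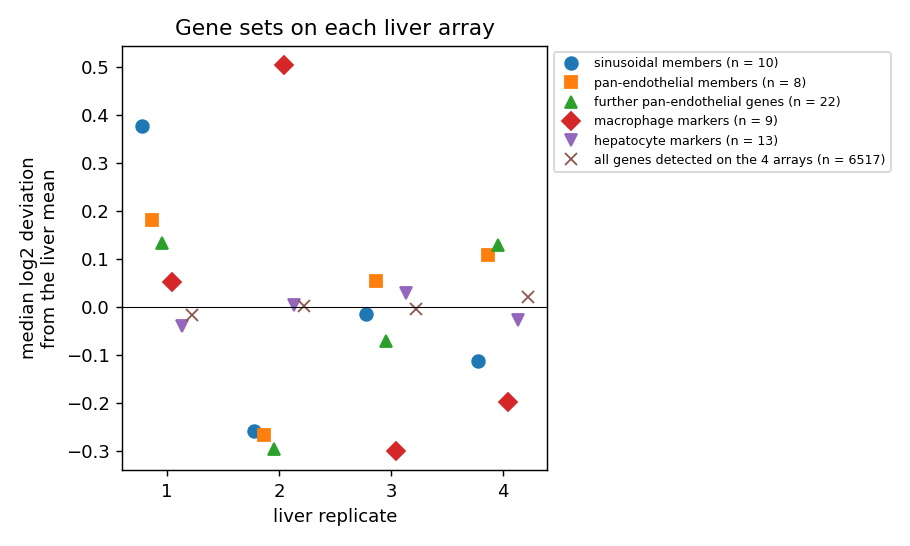
Median log2 deviation from the liver mean (y axis) of 6 gene sets on each liver array (x axis), over the genes of a set detected on all 4 liver arrays. Sinusoidal and pan-endothelial sets are high on replicate 1 and low on replicate 2, where the macrophage set is at its highest, while hepatocyte markers and all genes stay near 0.

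In hypothalamus the 8 barrier genes detected on all arrays had small median deviations, from -0.03 on replicate 1 to 0.09 on replicate 2. Their lowest value was not shared: Itm2a and Ly6c1 were lowest on replicate 1, Slco1c1 and Spock2 on replicate 2. Pan-endothelial genes had 5 of 7 above the mean on replicate 3 (median 0.21), led by Eng and Tek. Of all 8465 genes detected on the hypothalamus arrays, 4054 were above their mean on replicate 3 (median -0.0076). On the same array 8 of 9 pericyte and smooth muscle markers (median 0.23), 8 of 9 lymphatic and leptomeningeal markers (0.22) and 3 of 4 choroid plexus markers (1.05) were above their means, and the part of these cells in the member values was not tested.

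**Figure D4:**
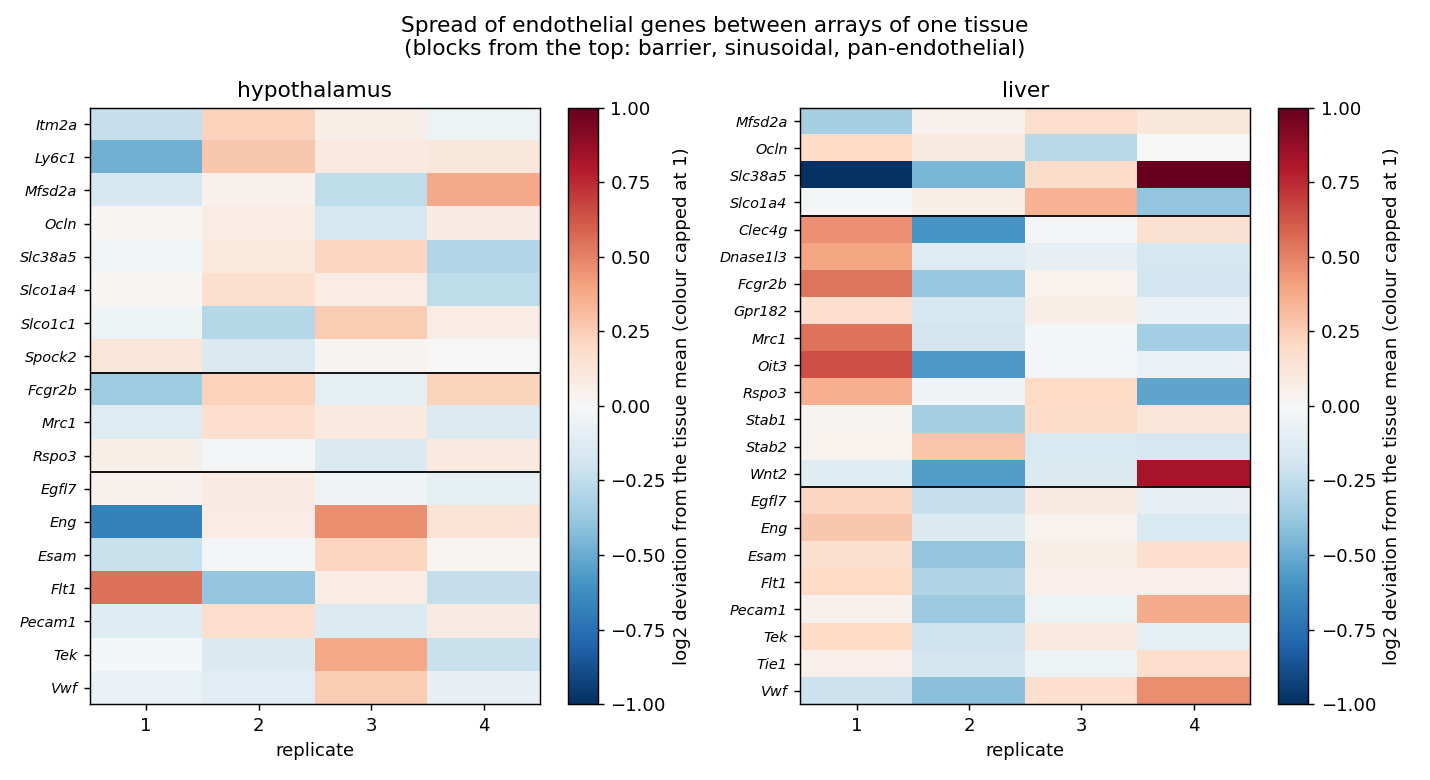
Log2 deviation of each member from its tissue mean (colour, capped at 1) on the 4 hypothalamus and 4 liver arrays (columns), for members detected on all 4 arrays of that tissue. Rows are ordered by class, with barrier genes on top, and show the low pan-endothelial block on liver replicate 2 and the wide spread of Slc38a5 in liver.

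Other genes of barrier biology, listed with earlier results of these data known, were read beside the members. Each list count from here on stands beside 43.0% of all tested genes called higher in hypothalamus and 37.3% in liver. Of 10 tested junction genes, liver had the higher level for 8 and hypothalamus for 2 (median -2.31), and hepatocytes and bile duct cells are known to express many of them. The claudin Cldn3 was at least 72.7-fold higher in liver and Cldn1 differed by -4.11 (adjusted p = 1.30e-07), whereas the junction adhesion molecule Jam2 was at least 1.87-fold higher in hypothalamus. Of 14 tested barrier transporter genes, 6 were higher in hypothalamus, 4 in liver and 4 not called. The neuronal and endothelial glutamate carrier Slc1a1 was at least 36.0-fold higher in hypothalamus, and the exporter Abcc5 differed by 4.21 (adjusted p = 3.09e-09). On the liver side stood the iron exporter Slc40a1 (-3.88, adjusted p = 2.47e-09) and the organic anion transporter Slco2b1 (-3.29, adjusted p = 5.01e-10).

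Wnt ligands of the barrier were clear in hypothalamus. Wnt7b and Wnt7a, which neural cells supply to brain capillaries, were seen on every hypothalamus array, missed on each liver array, and at least 11.1-fold (adjusted p = 2.04e-10) and 6.32-fold (adjusted p = 4.14e-10) higher. Of 12 tested genes of this pathway 6 were higher in hypothalamus, among them the target gene Apcdd1 (at least 4.13-fold) and Axin2 (0.60), and 4 in liver, among them the coreceptors Lrp5 (-2.37) and Tspan12 (-3.64). The coreceptor Reck was not called (0.25, adjusted p = 0.174), and Adgra2, its partner, was detected on no array, as were Lef1 and Foxf2. Norrin (Ndp) and its receptor Fzd4 were too dim to be tested.

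Ligands of the endothelial receptors were read as well. Vegfa, the main ligand of Kdr and Flt1, was higher in liver (difference -1.34, adjusted p = 3.07e-06), and Vegfb, which binds Flt1, was higher in hypothalamus (1.61, adjusted p = 5.69e-07). Gdf2, which encodes the endoglin ligand BMP9, was at least 3.19-fold higher in liver and detected on no hypothalamus array. Of the Tek ligands, Angpt2 was higher in liver (-0.53, adjusted p = 0.0352). Angpt1 differed by 0.67 (adjusted p = 0.000194) but was detected on no liver array. Its hypothalamus mean, 5.24, lay below the lowest detected signal of the liver arrays (5.50 to 5.69). A similar level in liver would have been missed. Cxcl12, a chemokine of vascular niches, differed by -3.62 (adjusted p = 3.38e-09). In all, hypothalamus had the higher level for 5 and liver for 8 of 14 tested ligand genes; under median scaling the split was 5 and 5, and in the authors' values 6 and 4.

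Further genes of the sinusoidal and shared classes went both ways. Of 14 tested sinusoidal genes outside the 34, liver was higher for 9 and hypothalamus for 4 (median -0.80), and in the authors' values for 6 and 5 (median -0.11). The coagulation inhibitor Tfpi and the lysine-degrading enzyme Aass were at least 8.40-fold and 9.29-fold higher in liver, and Dkk3 (4.12, adjusted p = 9.31e-10) and Cdh13 (3.56, adjusted p = 1.46e-09) were higher in hypothalamus. Of 25 tested pan-endothelial genes outside the 34, 10 were higher in hypothalamus, 7 in liver and 8 not called (median -0.15). The split was 13 and 6 under median scaling and 19 and 6 in the authors' values. Hhex, a homeobox gene that hepatocytes also express, differed by -5.28 (adjusted p = 9.08e-11), Gpihbp1, the capillary anchor of lipoprotein lipase, was at least 20.2-fold higher in liver, and Arhgef15 (2.31, adjusted p = 1.72e-07) and Lmo2 (1.23, adjusted p = 4.24e-06) led the other direction. Of 11 tested pericyte and smooth muscle markers 5 were higher in hypothalamus and 3 in liver, with summed levels of 2486 to 4418 and 2367 to 3925 units. Those sums were carried by different genes, smooth muscle actin (Acta2) being higher in hypothalamus (2.99, adjusted p = 0.000613) and Anpep, which hepatocytes also express, higher in liver (-5.88, adjusted p = 8.21e-10).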

How the data were processed

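The authors deposited 1 linear intensity per probe and array, without normalization between arrays, and a detection p-value beside it. Tools named by the submitters' processing notes are lumi (2.10.0) and R (2.15.0), without a role. Another deposited table has the authors' normalized intensity; its method is not stated. It was used as an alternative only. No column was left unmapped (0).

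The signals were processed with limma 3.58.1 in R 4.3.3 by neqc, which infers negative controls from the detection p-values, corrects with normexp (offset 16), quantile-normalizes all 8 arrays and takes log2. Quantile normalization makes each difference relative to the bulk of probes. The tissue test used lmFit and eBayes, and treat for differences beyond 2-fold, with a threshold of 0.05 on the adjusted p. It was checked on simulated data. Platform annotation named 23978 probes. The members and lists were chosen with earlier results of these data known. All members are named; from other lists the rule allows up to 2 called genes a direction, those with the largest difference, and any ligand or Wnt pathway gene. Ttr was named after its values were seen.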

Additional observations from a re-analysis of the deposited data

Results flagged for a closer look

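In 60 groups of 4 arrays, 1 for each tested member probe and tissue, the gap of the highest or lowest array to its nearest neighbour was set against the range of the group, by Dixon's test. Such gaps arise by chance in about 1 in 20 groups, and 2 were found. Dnase1l3 on liver replicate 1 read 9.56, while the other liver arrays lay between 8.99 and 9.09. Vwf on hypothalamus replicate 3 read 7.73, while the others lay between 7.37 and 7.40. Each of these arrays was also the one on which its class had its highest median deviation, a median that includes the flagged gene.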

How the results depend on the processing

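The count of sinusoidal genes higher in liver was 8 to 11 and that of barrier genes higher in hypothalamus 4 or 5 under the alternatives tried, which were median scaling, cyclic loess, no background correction, the authors' values, no filter, a stricter filter, the replicate block, each array left out and the mean of a gene's probes. Called pan-endothelial genes numbered 4 to 6. With the replicate block 10750 probes were called against 10741 without it, and 4, 10 and 5 members of the 3 classes as before, so no count changed by over 1.5 times. Samples of the same number had correlations of deviations of 0.12, 0.095, 0.030 and 0.12. Not all were over 0.1, the limit used here, so the block stayed an alternative. Samples of unlike number were not compared, so these values cannot decide whether a number marks 1 mouse. The 2-fold test called 5605 probes, and 3504 when background was not corrected. Sizes shrank too. The median over tested sinusoidal genes was -3.437, against -1.765 without background correction and -1.52 in the authors' values. For tested barrier genes it was 2.44, 1.221 and 1.746. Differences and fold bounds above belong to the main processing unless stated. Of called probes, hypothalamus held 52.5%, rising to 71.4% in the authors' values and 59.1% under median scaling. Over the 26 tested members, 392 values under an alternative kept their direction and side of the threshold, 10 lost and 8 gained a call, and 5 turned sign. Those 5 were Pecam1 under median scaling (0.34) and, in the authors' values, Pecam1 (0.28), Rspo3 (0.0011), Tek (0.098) and Esam (0.36); the cause was not tested. Slc38a5 gained a call under median scaling (1.36) and in the authors' values (0.88), and Vwf in the same 2 (0.78 and 0.61). Signals near background limit Lyve1, Cdh5, Kdr, Bmp2, Abcb1a and Abcg2, which these probes cannot compare between the tissues.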
